A study of Mus musculus with 67 samples.

Results

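The genes described here are 8 receptors and enzymes of extracellular nucleotide and lipid sensing in mouse microglia, the resident macrophages of the brain. They are the P2Y receptors P2ry12, P2ry13 and P2ry6, the P2X channels P2rx4 and P2rx7, the adenosine receptor Adora3, the ectonucleotidase Entpd1 and the lipid receptor Gpr34. They were taken by gene symbol from 3 tables of exon read counts that together list 24684 symbols. All 8 were present in each table, and all 8 passed the filter on low counts in each. The study set RNA on tagged ribosomes, captured from brain lysate, against RNA of sorted microglia, in 67 libraries and 21 groups. The mice were C57BL/6J and homozygous for an HA epitope tag on the ribosomal protein RPL22 that Cre recombinase switches on, written RLP22HA/HA in the labels. Cre came from 1 Cx3cr1 allele, as CX3CR1CreER/WT, which needs tamoxifen, or as CX3CR1Cre/WT, so every animal kept 1 intact Cx3cr1 allele and the tag marks any cell in which that promoter was active. Treated CX3CR1CreER/WT mice received 4 doses of 5 mg tamoxifen by gavage at 4 to 6 weeks of age, and the age at collection was not given in the sources used here.

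In the LPS experiment, all mice were CX3CR1CreER/WT and had tamoxifen. They were given PBS (3 libraries per preparation) or lipopolysaccharide (LPS, a bacterial cell wall component; 4 libraries per preparation) into the peritoneum at 2.5 mg/kg and were taken after 3 h. There were 4 preparations: an anti-HA pull-down from brain lysate, a mock pull-down with isotype IgG, cells sorted as GR1 negative, CD45 intermediate and CD11b positive, and a pull-down from such sorted cells. The digest experiment held pull-downs (3), IgG (4) and cells sorted with (4) or without (4) a 20 min enzyme digest at 37 °C, from tamoxifen-treated CX3CR1CreER/WT mice with no LPS. The driver experiment held pull-down, IgG and total lysate (input) from CX3CR1Cre/WT mice without tamoxifen (3 each) and from CX3CR1CreER/WT mice with (3 each) or without (2 each) tamoxifen.

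ATP and ADP leak from damaged or active cells and are read by microglia through P2X channels, which open on ATP, and P2Y receptors, which couple to G proteins. ENTPD1, also called CD39, cuts ATP and ADP to AMP, which other enzymes turn into adenosine. P2RY12, an ADP receptor, steers microglial processes toward injury and is widely used as a marker of resting microglia, while GPR34 is a receptor for lysophosphatidylserine that is related in sequence to the P2Y family.

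Total reads per library were between 166851 and 3513317 in the LPS experiment, between 685218 and 1843618 in the digest experiment and between 186099 and 2084562 in the driver experiment. The lowest totals were in the pull-down from sorted cells after LPS and in the 2 pull-downs without tamoxifen. The sorted libraries carried microglia markers: 10 marker genes summed to between 29000 and 30500 CPM (reads per 1e+06 reads of a library, scaled with TMM) after PBS. Markers of border macrophages, which also express Cx3cr1, summed to a mean of 807 CPM in the PBS pull-down against 19.0 CPM in sorted cells, and all 8 of them were lower in sorted cells. Markers of neurons summed to 1698 against 98.8 CPM. In whole tissue and pull-down libraries, fewer cells of a type and less RNA per cell cannot be told apart. The labels do not say that the libraries of a group came from separate animals, so each test below measures the spread between these libraries. In the LPS experiment the titles carry a running number from 1 to 7 that recurs in all 4 preparations, and whether it marks the same animal is not stated. Levels are given in CPM for each library or as means ± SD, differences as log2 ± SE from edgeR's quasi-likelihood test with Benjamini-Hochberg adjustment over all genes tested, and a gene passed at an adjusted p under 0.05.

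LPS moved most of the 8 genes in the same direction in all 3 microglial preparations. P2ry12, P2ry13, P2rx7 and Gpr34 fell, P2ry6 and Adora3 rose, and Entpd1 and P2rx4 passed the test in 1 preparation each. In the pull-down, 2 of 8 rose and 4 fell, where 26.5% of all tested genes passed, 15.5% upward and 11.0% downward. In sorted cells, 3 of 8 rose and 4 fell, where 34.5% of all genes passed, 17.0% upward and 17.6% downward. In the pull-down from sorted cells, 2 of 8 rose and 5 fell, where 25.6% of all genes passed, 12.7% upward and 12.9% downward. PBS and LPS libraries did not overlap for 6, 7 and 7 of the 8 genes in these preparations, which held for 35.3%, 38.7% and 28.5% of all genes. The median log2 difference of the 8 genes was -0.53 in the pull-down, -0.61 in sorted cells and -0.71 in the pull-down from sorted cells, and that of all tested genes was -0.03, -0.01 and -0.07.

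**Figure D1:**
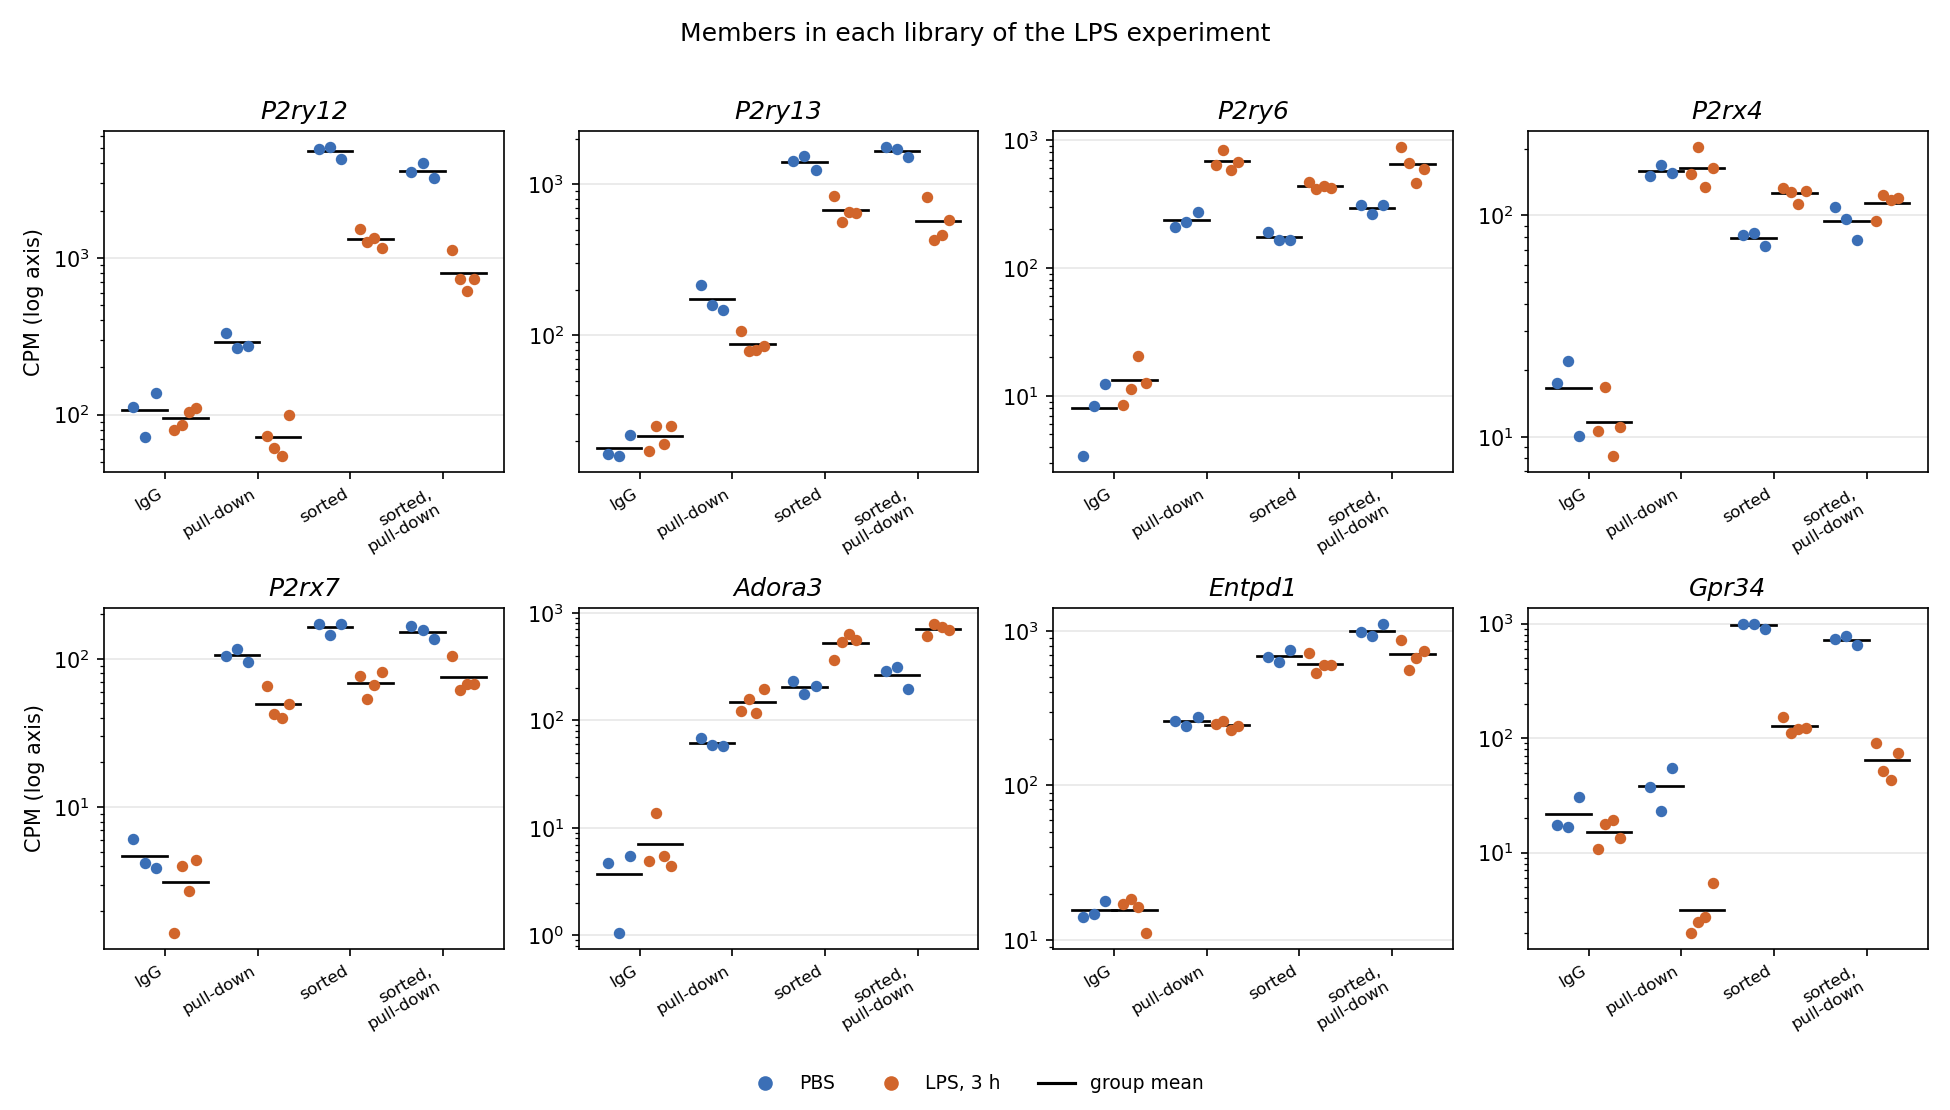
Level of each gene in every library of the LPS experiment, in CPM on a log axis, for the IgG, pull-down, sorted and sorted-then-pull-down preparations. Blue points are PBS libraries (n = 3), orange points are LPS libraries (n = 4) and black lines are group means. P2ry12 and Gpr34 are lower in every LPS library than in every PBS library of the same microglial preparation, and P2ry6 and Adora3 are higher.

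Among the P2Y receptors, P2ry12 in the pull-down stood at 331, 266 and 273 CPM after PBS and at 72.8, 60.9, 54.3 and 99.4 CPM after LPS. In sorted cells it stood at 4946, 5104 and 4282 CPM after PBS and at 1523, 1266, 1339 and 1148 CPM after LPS. In the pull-down from sorted cells it stood at 3515, 4008 and 3204 CPM after PBS and at 1125, 731, 615 and 732 CPM after LPS. No LPS library reached the lowest PBS library of its preparation. The LPS mean was 24.8%, 27.6% and 22.4% of the PBS mean in the 3 preparations in that order. The IgG libraries held means of 107 CPM after PBS and 94.9 CPM after LPS, and the pull-down percentage was not corrected for this background. P2ry12 fell by 2.03 ± 0.19 (adjusted p = 9.6e-14), by 1.86 ± 0.18 (adjusted p = 9.11e-14) and by 2.14 ± 0.18 (adjusted p = 2.9e-15).

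P2ry13, another ADP receptor, lies beside P2ry12 in the genome and fell as well. It went from 215.5, 159.7 and 147.5 CPM to 106, 78.3, 80.1 and 85.4 CPM in the pull-down. In sorted cells it went from 1433, 1549 and 1247 CPM to 833, 561.5, 656 and 643 CPM. Its level in the pull-down from sorted cells went from 1779, 1710 and 1524 CPM to 820.4, 427, 461.5 and 583 CPM. The PBS and LPS libraries did not overlap in any of these, and P2ry13 fell by 0.98 ± 0.18 (adjusted p = 1.48e-05), by 1.07 ± 0.17 (adjusted p = 3.38e-07) and by 1.51 ± 0.17 (adjusted p = 1.26e-10).

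P2ry6, a UDP receptor known for triggering phagocytosis, moved the other way. Its pull-down level went from 207, 228 and 275 CPM to 636, 831.5, 585 and 672 CPM. Its level in sorted cells went from 191, 166 and 165 CPM to 471, 413, 438 and 421 CPM. The pull-down from sorted cells went from 311, 263 and 307 CPM to 882, 664, 461.5 and 590.4 CPM. Every LPS library was above every PBS library, at a mean of 288%, 250% and 221% of PBS. The rises were 1.53 ± 0.18 (adjusted p = 1.19e-10), 1.32 ± 0.19 (adjusted p = 2.71e-08) and 1.16 ± 0.19 (adjusted p = 1.48e-06).

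The P2X channels split. P2rx7, which opens at high ATP and feeds the NLRP3 inflammasome, went from 104, 117 and 94.8 CPM to 65.6, 42.2, 40.05 and 49.7 CPM in the pull-down. In sorted cells it went from 170.5, 145 and 172 CPM to 76.2, 53.3, 66.2 and 80.8 CPM. For the pull-down from sorted cells the values went from 166, 155 and 135 CPM to 104, 61.7, 67.7 and 68.0 CPM. The groups did not overlap, and P2rx7 fell by 1.07 ± 0.18 (adjusted p = 1.71e-06), by 1.23 ± 0.19 (adjusted p = 1.84e-07) and by 0.94 ± 0.22 (adjusted p = 0.000648).

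P2rx4, an ATP-gated channel studied in neuropathic pain, passed the test in sorted cells and in no other preparation. There it went from 81.6, 83.05 and 72.9 CPM to 133, 128, 112.5 and 129.5 CPM without overlap, a rise of 0.66 ± 0.19 (adjusted p = 0.00391). In the pull-down it stood at 150.5, 168 and 156 CPM after PBS and at 153.5, 204, 134 and 163 CPM after LPS. Those libraries overlapped, with a difference of 0.05 ± 0.16 (adjusted p = 0.865) and a 95% interval from -0.26 to 0.36. The pull-down from sorted cells gave 0.25 ± 0.22 (adjusted p = 0.449), with an interval from -0.18 to 0.69. The rise in sorted cells exceeded the pull-down difference by 0.61 ± 0.25, which did not pass as an interaction (adjusted p = 0.184).

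On the adenosine side, Adora3, a receptor that lowers cyclic AMP, rose in all 3 preparations. It went from 67.9, 58.5 and 58.1 CPM to 122, 158, 116 and 193 CPM in the pull-down. In sorted cells it went from 233, 174 and 210.2 CPM to 364, 538, 638 and 558 CPM, and in the pull-down from sorted cells from 285, 315 and 194 CPM to 605, 792, 732 and 698 CPM. No LPS library was as low as a PBS library of its preparation, and the rises were 1.24 ± 0.21 (adjusted p = 1.82e-06), 1.35 ± 0.19 (adjusted p = 4.45e-08) and 1.43 ± 0.20 (adjusted p = 6.7e-08). The gene overlaps Tmigd3, and the rows of the pair held the same reads: the counts were equal in 59 of 67 libraries and differed by at most 2, over 7551 and 7541 reads in all. The level given for Adora3 therefore cannot be told apart from that of Tmigd3.

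Entpd1 did not pass in the pull-down or in sorted cells. It stood at 261, 241 and 279 CPM after PBS and at 250.1, 259.6, 228 and 244 CPM after LPS in the pull-down. Those groups overlapped, with a log2 difference of -0.08 ± 0.15 (adjusted p = 0.746) and a 95% interval from -0.39 to 0.22. In sorted cells the difference was -0.16 ± 0.15 (adjusted p = 0.446), with an interval from -0.46 to 0.14. Entpd1 in the pull-down from sorted cells went from 977.5, 921.5 and 1115 CPM to 870.5, 556, 671 and 744 CPM, without overlap, and fell by 0.49 ± 0.16 (adjusted p = 0.0148). That call was lost when LPS replicate 2 of that preparation was left out (-0.39, adjusted p = 0.0773), and adjusted p ranged from 8.85e-05 to 0.0773 over 13 alternatives.

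Gpr34 fell furthest of the 8 in each microglial preparation. In the pull-down it stood at 37.25, 23.0 and 54.3 CPM after PBS and at 1.98, 2.48, 2.71 and 5.40 CPM after LPS, the latter from 6, 4, 4 and 5 reads. In sorted cells it stood at 1000, 999.4 and 891 CPM after PBS and at 152.5, 112, 121 and 122 CPM after LPS. In the pull-down from sorted cells it stood at 731, 781 and 647.5 CPM after PBS and at 90.9, 51.45, 43.1 and 73.3 CPM after LPS. The groups did not overlap, and the LPS mean was 8.24%, 13.2% and 8.99% of the PBS mean. The IgG libraries held means of 21.6 CPM after PBS and 15.2 CPM after LPS, and the pull-down percentage was not corrected for this background. Gpr34 fell by 3.73 ± 0.32 (adjusted p = 2.76e-15), by 2.93 ± 0.18 (adjusted p = 1.44e-21) and by 3.33 ± 0.21 (adjusted p = 1.36e-20). In the pull-down it was among the 3 genes with the lowest log2 difference of the 11444 tested, and among the lowest 134 and 135 in the other preparations.

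**Figure D2:**
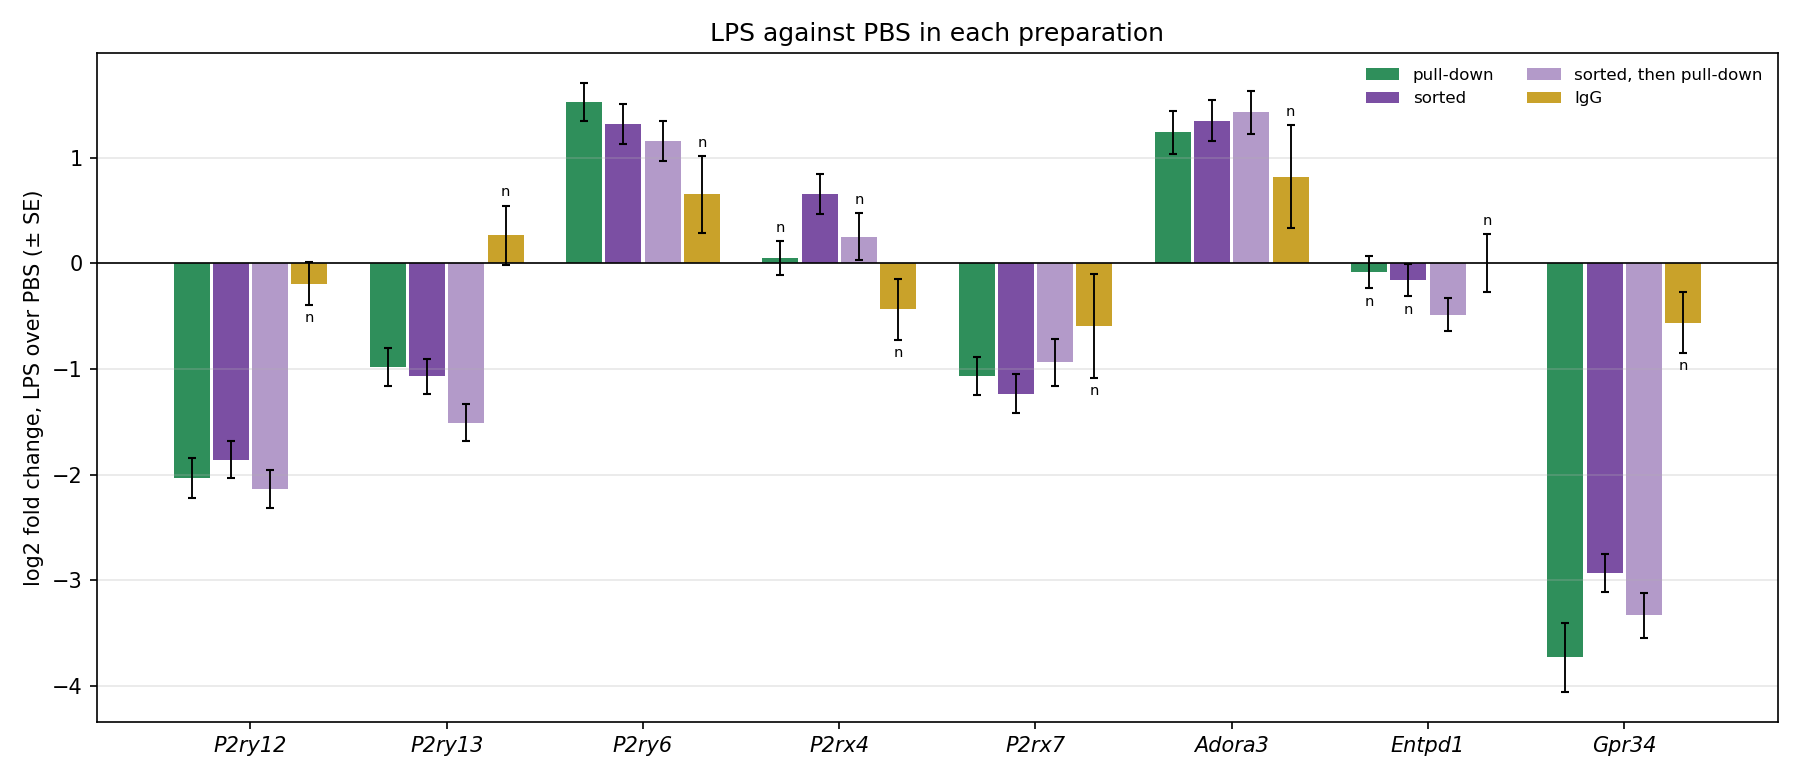
Log2 fold change of LPS over PBS for each gene (bars, ± SE) in the pull-down, sorted, sorted-then-pull-down and IgG preparations. The letter n marks a difference that did not pass. Gpr34 reaches -3.73 in the pull-down, P2ry6 reaches 1.53, and none of the IgG bars passes.

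The IgG libraries carry RNA that binds without the tag. With LPS, none of the 8 genes passed by edgeR there, none had an unadjusted p under 0.05 and none passed by DESeq2, where 1.15% of all genes passed by edgeR. P2ry12 in IgG stood at 112, 72.5 and 137 CPM after PBS and at 79.4, 85.8, 104 and 111 CPM after LPS, so these groups overlapped. The difference between the pull-down and IgG responses passed for P2ry12 (-1.84 ± 0.28), P2ry13 (-1.25 ± 0.33) and Gpr34 (-3.17 ± 0.45), all 3 lower, where 8.58% of all genes passed and 2.98% were lower. The difference between the responses of sorted cells and of the pull-down passed for none of 8 by edgeR or by DESeq2, with 2 of 8 at an unadjusted p under 0.05 and 3.21% of all genes passing. Those with an unadjusted p under 0.05 were P2rx4, given above, and Gpr34 (0.80 ± 0.39, adjusted p = 0.309). The 95% intervals of the other 6 differences between these responses lay between -0.70 and 0.68.

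Other cell markers moved with LPS in the same libraries. The 10 markers of neutrophils and monocytes summed to 11.7 CPM in the pull-down after PBS and 172 CPM after LPS, to 22.6 and 106 CPM in IgG, and to 19.6 and 43.0 CPM in sorted cells. In the pull-down from sorted cells they summed to 91.5 CPM after PBS and 111 CPM after LPS. The 10 microglia markers, which hold none of the 8 genes, fell in 7 and rose in 1 case in the pull-down (median -0.62), with the same counts in sorted cells (median -0.99), and 9 fell in the pull-down from sorted cells (median -0.97). The part of these shifts in the changes of the 8 genes was not tested.

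Promoter sequence is shown for 3 genes whose LPS responses differ: P2ry12 and P2ry13, which fell and which sit side by side within the span of Med12l, and Adora3, which rose. The Adora3 counts cannot be told apart from those of Tmigd3, so the rise cannot be assigned to the Adora3 start. The 250 bases before each annotated start come from RefSeq on GRCm38.p6, while the reads were aligned to mm9. Entries were found for 6 of 8 genes, and Gpr34 and P2ry6 were not among them. These 4 motifs were searched on both strands: the PU.1 core AGGAAGT, held by 7.69% of 32851 promoters of this length, the AP-1 palindrome TGANTCA (6.75%), a kappaB core GGGANTTTC (0.941%) and an ETS-IRF composite GGAANNGAA (6.99%), in which the letters GGAA overlap the PU.1 core. Capitals mark matches, and each sequence reads 5′ to 3′ on the gene's strand.
P2ry12 (chr3:59262986-59263235, minus strand): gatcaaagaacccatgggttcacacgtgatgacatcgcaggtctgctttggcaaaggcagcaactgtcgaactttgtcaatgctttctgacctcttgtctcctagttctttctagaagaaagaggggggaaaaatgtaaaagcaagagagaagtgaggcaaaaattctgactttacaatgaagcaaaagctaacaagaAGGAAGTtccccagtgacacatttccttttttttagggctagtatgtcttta
P2ry13 (chr3:59210883-59211132, minus strand): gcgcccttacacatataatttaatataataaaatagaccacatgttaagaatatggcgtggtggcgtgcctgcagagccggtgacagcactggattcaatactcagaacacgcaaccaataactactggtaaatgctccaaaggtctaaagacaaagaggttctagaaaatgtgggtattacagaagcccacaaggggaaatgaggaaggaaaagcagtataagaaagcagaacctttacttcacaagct
Adora3 (chr3:105904171-105904420, plus strand): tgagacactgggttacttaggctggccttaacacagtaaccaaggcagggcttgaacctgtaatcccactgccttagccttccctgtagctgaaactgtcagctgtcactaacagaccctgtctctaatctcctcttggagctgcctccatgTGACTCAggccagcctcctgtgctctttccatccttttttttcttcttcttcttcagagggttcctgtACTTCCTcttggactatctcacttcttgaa
The PU.1 core stood 52 to 46 bases before the start of P2ry12 and, on the other strand, 30 to 24 bases before that of Adora3, which also held the AP-1 palindrome 98 to 92 bases before its start. None of the 4 motifs was in the P2ry13 window. The only other match was an AP-1 palindrome 249 to 243 bases before 1 of the P2rx7 starts. These matches describe the letters in each window and say nothing on binding.

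Against IgG, the pull-down after PBS held more of all 8 genes, where 65.0% of all genes passed and 33.0% were higher. Libraries did not overlap for 7 of the 8, which held for 67.4% of all genes. The differences were between 3.27 and 4.89 for P2ry13, P2ry6, P2rx4, P2rx7, Adora3 and Entpd1. They were smaller for P2ry12 (1.42 ± 0.21), whose IgG libraries held a mean of 107 CPM, and for Gpr34. Gpr34 stood at 37.25, 23.0 and 54.3 CPM in the pull-down and at 17.6, 16.8 and 30.3 CPM in IgG, with overlap and a difference of 0.80 ± 0.26 (adjusted p = 0.00634). Under 5 of 12 alternatives it did not pass, among them DESeq2 (0.28) and leaving out PBS pull-down replicate 3 (0.46) or PBS IgG replicate 1 (0.64). Over all 12 the difference lay between 0.28 and 1.12, with adjusted p from 0.000479 to 0.368.

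After LPS, 6 of 8 genes were above IgG and 2 were below it, where 73.0% of all genes passed, 37.6% above and 35.3% below. Gpr34 stood at 10.6, 17.6, 19.1 and 13.3 CPM in IgG, above every pull-down library, with a log2 difference of -2.37 ± 0.37 (adjusted p = 6.09e-08). P2ry12 in the pull-down overlapped IgG, with -0.42 ± 0.19 (adjusted p = 0.0458). Over 14 alternatives adjusted p ranged from 9.16e-08 to 0.159, and the call was lost under 6. These were the fit without a filter on low counts and the fits without LPS pull-down replicate 1, 2 or 3 or LPS IgG replicate 3 or 4. The 6 genes above IgG had differences from 2.02 ± 0.21 for P2ry13 to 5.77 ± 0.22 for P2ry6.

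Sorted cells held far more P2ry12, P2ry13 and Gpr34 than the pull-down did, and more Adora3, Entpd1 and P2rx7, while P2rx4 was lower. After PBS, 6 of 8 genes were higher and 2 lower in sorted cells, where 71.9% of all genes passed, 33.2% higher and 38.7% lower. The libraries of sorted cells and pull-down did not overlap for any of the 8, which held for 76.0% of all genes. P2ry12 was higher by 4.04 ± 0.21 after PBS and by 4.22 ± 0.19 after LPS, from the library values given above. Gpr34 was higher by 4.67 ± 0.22 and 5.46 ± 0.28. P2ry13 was higher by 3.02 ± 0.20 and 2.93 ± 0.17. The 10 microglia markers had a median difference of 0.62 after PBS, with 5 higher and 2 lower, and all tested genes had a median of -0.15. Of the 11444 tested genes, 2.18% had a difference as high as that of P2ry12 and 1.07% as high as that of Gpr34.

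Adora3 was higher in sorted cells by 1.75 ± 0.22 after PBS and 1.86 ± 0.17 after LPS, and Entpd1 by 1.40 ± 0.17 and 1.32 ± 0.14. P2rx7 was higher by 0.63 ± 0.18 (adjusted p = 0.00209) and 0.46 ± 0.19 (adjusted p = 0.0217). The P2rx7 values depended on the fit: without the low-count filter, which also changed the scaling, they were 0.13 and -0.10, and neither passed. After LPS, that of P2rx7 was also lost without LPS pull-down replicate 2 (0.39) or 3 (0.37) or sorted replicate 4 (0.42). P2rx4 was lower in sorted cells after PBS, at a mean of 79.2 against 158 CPM (adjusted p = 4.52e-06), and after LPS, by a log2 difference of -0.39 ± 0.16 (adjusted p = 0.0232). The LPS call was lost with total-count scaling (-0.12) and under 5 of the fits that left out a library, namely LPS pull-down replicate 2 (-0.26) and each of the LPS sorted libraries (-0.36 to -0.31). After LPS the count was again 6 higher and 2 lower, where 76.1% of all genes passed, 33.1% higher and 43.0% lower.

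P2ry6 gave opposite directions in the 2 experiments that sorted cells. In the LPS experiment, the PBS libraries held 191, 166 and 165 CPM in sorted cells against 207, 228 and 275 CPM in the pull-down. The difference was -0.44 ± 0.19 (adjusted p = 0.0392) after PBS and -0.65 ± 0.16 (adjusted p = 0.00025) after LPS. The PBS call was lost under total-count scaling (-0.22) and if PBS pull-down replicate 2 (-0.41) or 3 (-0.33) was left out, or PBS sorted replicate 2 (-0.41) or 3 (-0.40), and adjusted p ranged from 4.73e-06 to 0.273 over 12 alternatives. In the digest experiment, cells sorted with the digest held 229, 230.3, 252.5 and 298 CPM and the pull-down held 151, 154 and 147 CPM, without overlap. There P2ry6 was higher in sorted cells by 0.74 ± 0.14 (adjusted p = 1.05e-05). The 2 experiments were scaled separately, and their difference was not tested.

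**Figure D3:**
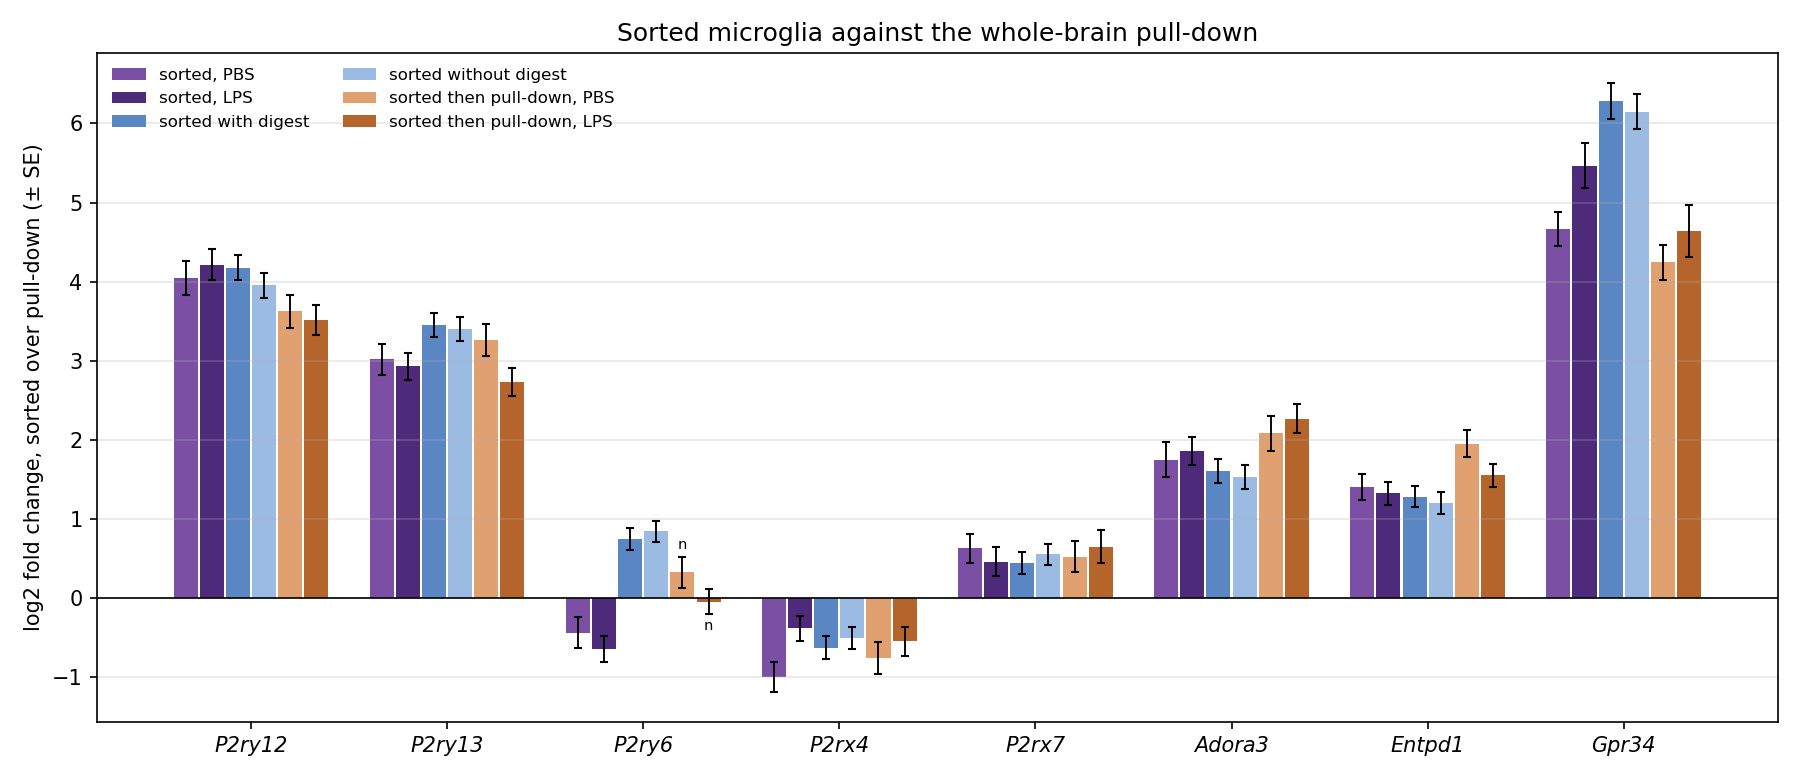
Log2 fold change of sorted cells, or of the pull-down from sorted cells, over the whole-brain pull-down (bars, ± SE) in 6 comparisons from the LPS and digest experiments. The letter n marks a difference that did not pass. P2ry12, P2ry13 and Gpr34 lie above 2.7 in all 6, P2rx4 lies below 0 in all 6, and P2ry6 in sorted cells lies below 0 in the LPS experiment and above 0 in the digest experiment.

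In the digest experiment, whose mice had no LPS, P2ry12, P2ry13 and Gpr34 were again far higher in sorted cells. Cells sorted with the digest exceeded the pull-down by 6.28 ± 0.22 for Gpr34, 4.17 ± 0.16 for P2ry12 and 3.45 ± 0.15 for P2ry13. Here 7 of 8 genes were higher and P2rx4 was lower (-0.63 ± 0.14), where 72.8% of all genes passed, 31.6% higher and 41.1% lower. Gpr34 stood at 9.10, 15.6 and 7.66 CPM in the pull-down, from 12, 25 and 12 reads, and at 903.5, 925, 764.5 and 822 CPM in cells sorted with the digest. The groups lay far apart, and all 8 genes were above IgG in that pull-down, where 74.5% of all genes passed and 26.7% were higher. IgG held a mean of 9.99 CPM of P2ry12 in the digest experiment, and 107 CPM in the LPS experiment after PBS, each on its own scale.

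Cells sorted with and without the digest did not differ detectably in the 8 genes. Cells sorted without it held 3580, 3326, 2868 and 3213 CPM of P2ry12 against 3440, 3607, 4357 and 3732 CPM with it, and these ranges overlapped. The digest minus no-digest difference for P2ry12 was 0.22 ± 0.12, with a 95% interval from -0.02 to 0.46. None of 8 passed by edgeR or by DESeq2 and none had an unadjusted p under 0.05, where 0.139% of all genes passed by edgeR. The 95% intervals of the other 7 lay between -0.40 and 0.40. Sorting without the digest also gave 7 of 8 genes higher and P2rx4 lower (-0.51 ± 0.14) than the pull-down, where 72.8% of all genes passed, 31.9% higher and 40.9% lower. The P2rx4 call was lost with total-count scaling (-0.30, adjusted p = 0.0509).

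The pull-down from sorted cells was also far above the whole-brain pull-down for P2ry12, P2ry13 and Gpr34. After PBS it exceeded the whole-brain pull-down by 4.24 ± 0.22 for Gpr34, 3.62 ± 0.21 for P2ry12, 3.26 ± 0.20 for P2ry13, 2.08 ± 0.23 for Adora3 and 1.95 ± 0.17 for Entpd1. In all, 6 of 8 were higher, P2rx4 was lower (-0.75 ± 0.20) and P2ry6 did not pass (0.32 ± 0.20, adjusted p = 0.161), where 53.7% of all genes passed, 24.7% higher and 29.0% lower. P2ry6 passed with those groups fitted alone (0.39). The P2rx7 call (0.52 ± 0.20, adjusted p = 0.0225) was lost without the low-count filter (0.18), without PBS pull-down replicate 1 (0.51) or 3 (0.44) and without PBS replicate 1 (0.53) or 2 (0.50) of the pull-down from sorted cells. The P2rx4 call was lost without PBS replicate 3 of that preparation (-0.51). After LPS the count was again 6 higher and 1 lower, where 58.1% of all genes passed, 24.7% higher and 33.4% lower. P2ry6 (-0.05, adjusted p = 0.819) then passed without the filter (-0.49). There the P2rx7 call (0.65 ± 0.21) was lost without the filter (0.19) or without LPS replicate 1 of the pull-down from sorted cells (0.39), and that of P2rx4 (-0.55 ± 0.18) without the same replicate (-0.45) or with those groups fitted alone (-0.38).

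Set against sorted cells directly, the pull-down from sorted cells held more P2ry6 (0.76 ± 0.20, adjusted p = 0.00286) and Entpd1 (0.55 ± 0.16, adjusted p = 0.00692) after PBS, 2 of 8 genes where 31.9% of all genes passed and 16.6% were higher. Entpd1 did not pass there with total-count scaling (0.30). P2ry12 (-0.42 ± 0.19, adjusted p = 0.0787) and Gpr34 (-0.43 ± 0.18, adjusted p = 0.0615) did not pass, but did so with total-count scaling (-0.67 and -0.68) or with those groups fitted alone (-0.37 and -0.38). After LPS it held less P2ry12 (-0.70 ± 0.17, adjusted p = 0.000961) and Gpr34 (-0.82 ± 0.22, adjusted p = 0.00263) and more P2ry6 (0.60 ± 0.17, adjusted p = 0.00357), 3 of 8 genes where 31.9% of all genes passed, 15.2% higher and 16.7% lower. Adora3 (0.41, adjusted p = 0.0596) passed under 7 of 14 alternatives (0.43 to 0.52). The P2ry6 call was lost without LPS replicate 1 of the pull-down from sorted cells (0.40).

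Several of the 8 overlap larger genes, and the strand setting of the counts was not given in the sources used here. P2ry12 and P2ry13 lie inside Med12l, Gpr34 lies inside Cask, and P2rx4 overlaps Camkk2. Med12l, a Mediator subunit gene, stood at 69.7 ± 12.1 CPM (SD, n = 3) in sorted cells and 2.37 ± 1.84 CPM (SD, n = 3) in the pull-down after PBS, a difference of 4.81 ± 0.37. In the pull-down from sorted cells it stood at 22.2 ± 5.25 CPM (SD, n = 3). Cask, which encodes a scaffold kinase, fell by 1.86 ± 0.25 with LPS in sorted cells and gave -0.15 ± 0.23 in the pull-down. Med12l with LPS gave -0.37 ± 0.23 in sorted cells, which did not pass (adjusted p = 0.226). How far reads of host and inner gene were shared was not tested.

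In the driver experiment, tamoxifen-treated CX3CR1CreER/WT brains gave a pull-down rich in these genes. All 8 exceeded the input, where 64.2% of all genes passed and 28.7% were higher. All 8 exceeded IgG, where 66.1% passed and 30.8% were higher. P2ry6 stood at 322, 392 and 288 CPM in the pull-down and at 4.91, 5.22 and 3.12 CPM in the input, a difference of 6.26 ± 0.34. Entpd1 stood at 380.1, 354 and 337 CPM against 7.71, 5.22 and 5.80 CPM, a difference of 5.82 ± 0.28. The smallest were P2rx4 (2.92 ± 0.25), which the input held at 20.9 ± 6.85 CPM (SD, n = 3), and P2ry12 (3.80 ± 0.33). P2rx4 was the 1 gene of 8 that passed between IgG and input, and it was lower in IgG (-0.95 ± 0.31, adjusted p = 0.0165). Of all genes 35.0% passed there and 18.4% were lower. The P2rx4 call was lost without IgG replicate 3 (-0.86) or input replicate 1 (-0.66). P2ry6 gave -0.725 ± 0.594 in this comparison and did not pass (adjusted p = 0.36).

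CX3CR1Cre/WT brains, in which Cre needs no tamoxifen, gave lower pull-down levels. P2ry12 stood at 10.7, 21.5 and 16.1 CPM in their pull-down and at 9.14, 14.5 and 35.0 CPM in their IgG, with overlap. Against IgG only P2rx4 passed (0.95 ± 0.29, adjusted p = 0.00785), 1 of 8 where 38.8% of all genes passed and 20.5% were higher, but under total-count scaling it did not pass (0.67). When pull-down replicate 1 was left out, P2ry6 (1.66) and Entpd1 (1.08) passed as well, and Entpd1 (1.17) also did so without IgG replicate 2. Against the input, 5 of 8 were higher, where 34.9% of all genes passed and 18.1% were higher: Gpr34 (2.33 ± 0.58), P2ry6 (1.63 ± 0.44), P2ry13 (1.22 ± 0.47), Entpd1 (1.20 ± 0.32) and P2rx4 (0.65 ± 0.25). The P2ry13 and P2rx4 calls were lost under several alternatives, with P2ry13 between 0.79 and 1.20 and P2rx4 between 0.36 and 0.73 where they were lost. These included leaving out pull-down replicate 2 or 3 or input replicate 2 or 3, and for P2rx4 also pull-down replicate 1.

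All 8 genes were lower in the CX3CR1Cre/WT pull-down than in that of tamoxifen-treated CX3CR1CreER/WT brains, from -4.93 ± 0.31 for P2ry6 to -1.60 ± 0.43 for Gpr34, where 55.7% of all genes passed and 25.6% were lower. The enrichment over input was smaller in CX3CR1Cre/WT brains for 7 of 8 by the interaction, where 43.6% of all genes passed and 19.7% were lower. Gpr34 did not pass (-1.86 ± 0.93, adjusted p = 0.1). Markers moved with this: the 10 microglia markers summed to a mean of 1266 CPM in the CX3CR1Cre/WT pull-down and 24070 CPM in the other, and all 10 were lower. The 10 neuron markers summed to 6566 against 1781 CPM, and all 10 were higher. The CX3CR1Cre/WT pull-down libraries were uneven, with sums from 707 to 1612 CPM for microglia markers and from 2159 to 6059 CPM for astrocyte markers. Neuron marker sums there ran from 5580 to 7398 CPM. The part of these marker differences in the 8 genes was not tested.

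**Figure D4:**
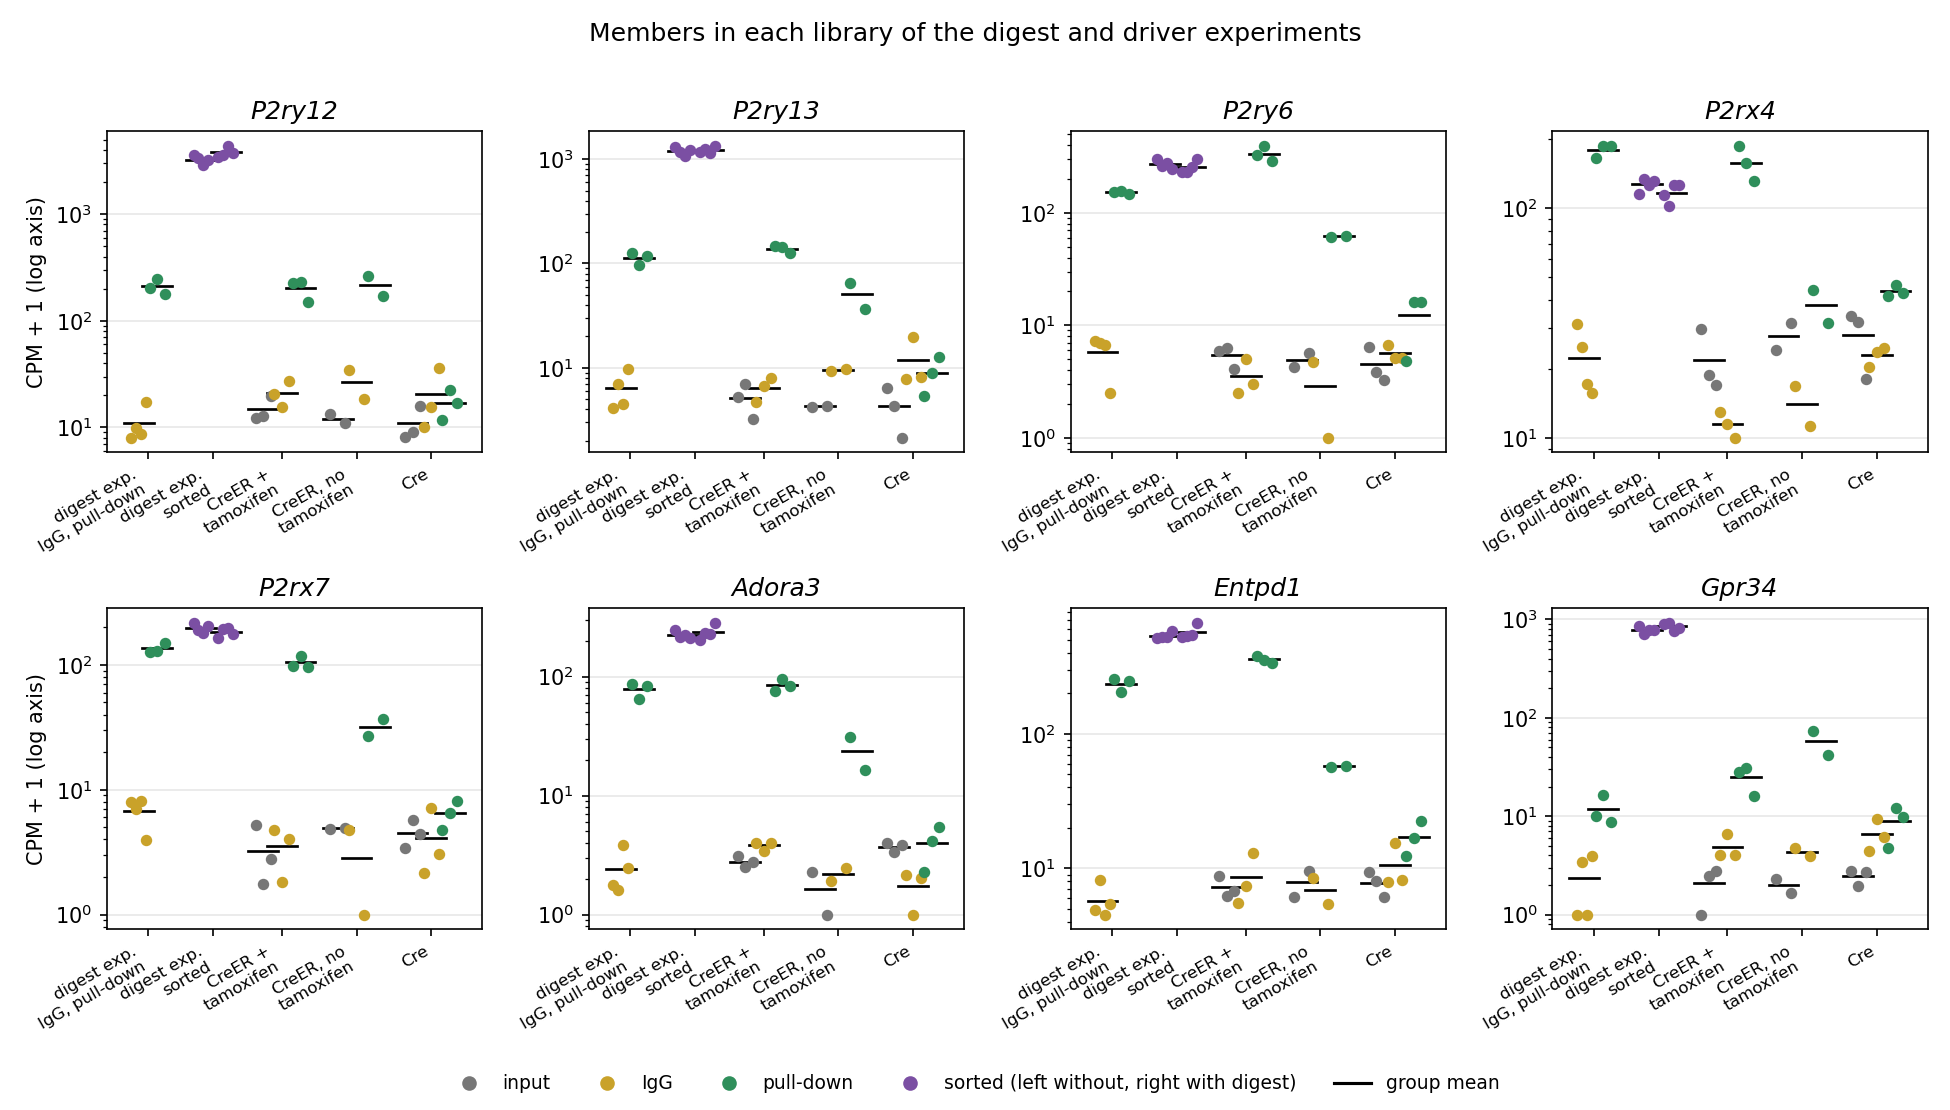
Level of each gene in every library of the digest and driver experiments, as CPM + 1 on a log axis, with input in grey, IgG in yellow, pull-down in green and sorted cells in purple (left without, right with the digest). Black lines are group means, and groups hold 2 to 4 libraries. The pull-down without tamoxifen lies near the tamoxifen pull-down for P2ry12 and above it for Gpr34, and below it for the other 6 genes.

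Without tamoxifen, the CX3CR1CreER/WT pull-down was shallow, with 186099 and 219521 reads in its 2 libraries, but it still held these genes. P2ry12 stood at 263 and 169.5 CPM, from 61 and 33 reads, against 227, 232 and 149 CPM with tamoxifen. These ranges overlapped, with a difference of 0.11 ± 0.34 (adjusted p = 0.834). Gpr34 stood at 73.2 and 41.1 CPM, from 17 and 8 reads, against 27.0, 29.7 and 15.2 CPM, and was higher by 1.29 ± 0.48 (adjusted p = 0.0341). That call was lost without the low-count filter (1.18), by DESeq2 (1.21), and without tamoxifen pull-down replicate 3 (1.03) or no-tamoxifen pull-down replicate 1 (0.73). The other 6 genes were lower, from -2.66 ± 0.32 for Entpd1 to -1.42 ± 0.39 for P2ry13, making 7 of 8 genes that passed where 34.7% of all genes did, 16.4% higher and 18.3% lower. Markers moved here as well: all 10 microglia markers were lower (median -2.42), with sums of 4706 CPM without and 24070 CPM with tamoxifen, and 6 of 8 border macrophage markers were lower. Of the neuron markers 9 of 10 were higher, with sums of 5622 and 1781 CPM, as were 6 of 8 astrocyte markers, and the part of this in the 8 genes was not tested. The P2ry13 call was lost with total-count scaling (-0.95) or without no-tamoxifen replicate 2 (-1.17), and that of P2rx7 (-1.75 ± 0.45) without no-tamoxifen replicate 1 (-1.59).

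Against the input from CX3CR1CreER/WT mice without tamoxifen, 7 of 8 genes were higher in this pull-down and P2rx4 did not pass (0.47 ± 0.44, adjusted p = 0.555). Of all genes 10.9% passed there and 6.44% were higher. Against IgG the same 7 passed, where 8.13% of all genes did and 5.01% were higher. Gpr34 rested on 25 pull-down and 3 input reads, a ratio of 59.6 with a 95% exact counting interval from 18.2 to 309. Adora3 rested on 10 and 2 reads, a ratio of 35.8 with an interval from 7.63 to 336, and these intervals cover counting error only. With 1 pull-down library left out, the lone one is assumed to vary like the other groups. Calls were then lost for P2rx7 against input without replicate 2 (2.70), and for P2ry13 (2.02) and Adora3 (3.60) against IgG without replicate 1.

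Of the pathway around these genes, 39 further genes were listed and 38 were in the tables, of which 21 were tested in the LPS experiment. With LPS, 2 rose and 3 fell in the pull-down, 3 rose and 5 fell in sorted cells, and 3 rose and 3 fell in the pull-down from sorted cells. Of all tested genes, 26.5%, 34.5% and 25.6% passed in these comparisons, so the pathway counts lie near those shares. Their median log2 differences were -0.09, -0.26 and -0.20, beside those of all genes given above. P2ry2, an ATP and UTP receptor gene that neighbours P2ry6, stood at 60.0 ± 18.4 CPM (SD, n = 4) after LPS and 0.949 ± 1.13 CPM (SD, n = 3) after PBS in the pull-down. It rose by 5.81 ± 0.46 there (adjusted p = 1.57e-15). In sorted cells it rested on 200 reads after LPS and 3 after PBS, a ratio of 58.0 with a 95% exact counting interval from 19.6 to 284.

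Slc29a3, a lysosomal nucleoside transporter, fell in all 3 preparations. Its mean went from 461 to 87.5 CPM in the pull-down and from 729.9 to 176 CPM in sorted cells, and it fell by 2.41 ± 0.18, 2.06 ± 0.18 and 2.00 ± 0.19. Pnp, the purine nucleoside phosphorylase, rose by 0.72 ± 0.20, 0.68 ± 0.20 and 0.79 ± 0.20. Abhd12, a lysophosphatidylserine lipase, fell by 0.51 ± 0.18, 0.56 ± 0.19 and 0.97 ± 0.19.

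Kcnk13 encodes THIK-1, the potassium channel that P2RY12 signalling opens. It fell by 2.36 ± 0.31 in the pull-down, by 0.88 ± 0.27 in sorted cells and by 0.85 ± 0.33 in the pull-down from sorted cells (adjusted p = 0.0473). Its mean in the pull-down went from 34.3 ± 4.20 CPM (SD, n = 3) to 6.77 ± 2.25 CPM (SD, n = 4), and in sorted cells from 59.2 ± 20.6 to 32.2 ± 11.1 CPM. It was the 1 listed pathway gene for which the LPS responses of sorted cells and pull-down differed (1.48 ± 0.42, adjusted p = 0.0319). Between sorted cells and pull-down after PBS, 4 of 21 pathway genes were higher and 8 lower, where 33.2% of all genes were higher and 38.7% lower. Among the lower ones were the pannexin gene Panx2 (-4.57 ± 0.33) and the adenosine receptor gene Adora1 (-3.75 ± 0.30), at 15.9 against 203 CPM, while the ectonucleotidase gene Entpd2 had 0 reads in sorted cells.

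Across the 21 group means, each gene was compared with 10227 genes by Pearson's r of log2 CPM centred within each experiment. Such points share libraries and the contrast of brain lysate against sorted cells, so r is a description here. P2ry12 was most like P2ry13 (r = 0.962), Gpr34 (0.962) and Maf (0.961). Gpr34 was most like P2ry12, followed by Rgs2 (0.926) and Hist1h2ap (0.925). P2ry13 was most like Mpeg1 (0.98), Entpd1 was most like Ccdc88b (0.994) and P2rx7 was most like Fmnl3 (0.991). P2ry6 was most like Rab3il1 (0.985) and P2rx4 was most like Ostf1 (0.981), while Adora3, after Tmigd3, was most like Tlr1 (0.981) and Pnp (0.975). Among the 8 themselves, the lowest r was between P2rx4 and Gpr34 (0.402).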

How the data were processed

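The deposited tables hold raw read counts per gene over exons, 1 table per experiment. Per the submitters' processing notes, the authors used bcl2fastq, HISAT 0.1.5, HOMER and the build mm9. The sources used here do not give the strand setting or annotation. Groups came from the labels. Within each experiment all groups were fitted together with edgeR 4.0.16 (R 4.3.3): TMM scaling, filterByExpr with a minimum count of 10, robust glmQLFit, Benjamini-Hochberg at 0.05. Of 24421, 24411 and 24411 rows, 11444, 11529 and 11868 were tested. SE is the log2 difference over the root of F. On simulated counts for the LPS pull-down comparison, 46% of 2-fold and 99% of 4-fold changes were recovered (11456 genes). In the digest and driver comparisons simulated, 53% and 34% of 2-fold changes were recovered. The simulation gave every gene the same spread (dispersion 0.05) and changed only genes above a minimum mean count. These shares are therefore not the sensitivity for the 8 genes. Alternatives were DESeq2 1.42.0, other scalings, no filter, groups alone, a replicate block and leaving out each library. Members and lists were chosen with earlier results of these data known. Named genes are the 8, up to 5 pathway genes per comparison by smallest p, overlapping neighbours and the 3 most alike genes. No gene lengths of this build were used, so levels are not compared between genes.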

Additional observations from a re-analysis of the deposited data

Results flagged for a closer look

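Of 56 levels of the 8 genes in groups of 4 libraries, 5 had a library set apart from the other 3 by more than Dixon's 95% limit, and chance flags about 1 in 20 groups. These were P2ry6 at 1.48 CPM in IgG replicate 4 of the digest experiment, from 1 read, and P2rx7 at 104 CPM in LPS replicate 1 of the pull-down from sorted cells. Entpd1 stood at 667 CPM in replicate 4 of cells sorted with the digest and at 581.5 CPM in replicate 4 of those sorted without it. Adora3 stood at 13.6 CPM in LPS IgG replicate 2, from 17 reads.

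The LPS response differed between pull-down and IgG by a test of the interaction for P2ry12 (-1.84), Gpr34 (-3.17) and P2ry13 (-1.25). The enrichment of the pull-down differed between CX3CR1Cre/WT and tamoxifen-treated CX3CR1CreER/WT brains for Adora3 (-5.41), P2rx7 (-4.92), P2ry6 (-4.63), Entpd1 (-4.62), P2ry13 (-3.89), P2ry12 (-3.13) and P2rx4 (-2.27). All are log2 differences of differences that passed in edgeR.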

How the results depend on the processing

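Among refitted differences of the 8 genes, 2852 kept their side of the threshold, 67 were lost and 20 were gained. Of those that passed in the main fit, 1 turned in direction: P2rx7 in sorted cells against pull-down after LPS was -0.10 without the filter on low counts. Turns among differences that did not pass were not counted. The fit without the filter also computed its scaling anew, and P2rx7 was not the only gene it moved. For the pull-down from sorted cells against the whole-brain pull-down after LPS, P2rx7 went from 0.65 to 0.19 and P2ry6 from -0.05 to -0.49. The cause was not tested. The count of the 8 genes called for the pull-down from sorted cells against sorted cells was 5 with the groups alone after PBS and 5 by DESeq2 after LPS. For CX3CR1Cre/WT pull-down it was 3 against input and 0 against IgG with total-count scaling. With the groups alone it was 1 against input. There P2rx4 was tested and lost (0.63), while the other genes no longer called were not tested, since the filter on those groups removed them. Leaving out 1 library each gave 3 to 5 against input and 1 to 3 against IgG, and 0 to 2 for IgG against input with tamoxifen. Over all genes, the LPS response in IgG called 132 genes, 213 without a filter, 84 with the groups alone and 86 to 172 without 1 library. The difference between sorted and pull-down responses called 367, 552 with the groups alone and 196 to 437 without 1 library. Digest against no digest called 16, 25 without a filter, 30 with the groups alone and 25 by DESeq2. Pull-down without tamoxifen called 1293 against input (451 to 817 without 1 library), 965 against IgG (359 to 715) and 4120 against the tamoxifen pull-down (2517 to 4001).

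Scaling moved the share of called genes that were higher. With total-count scaling it went from 58.6% to 40.6% for LPS in the pull-down, from 65.3% to 47.5% for its difference from IgG, from 50.8% to 35.2% and from 51.6% to 34.4% for pull-down against IgG after PBS and LPS, and from 52.3% to 31.5% and 47.8% to 32.2% for the pull-down from sorted cells against sorted cells. In the driver experiment it went from 44.7% to 28.8% (input) and 46.6% to 30.4% (IgG) with tamoxifen, from 51.8% to 28.1% and 52.9% to 31.1% for CX3CR1Cre/WT, and from 47.2% to 70.3% without against with tamoxifen. With DESeq2 size factors it was 45.0%, 45.7%, 32.2% and 31.9% for the first 4. Total-count scaling shifted the median of all genes by -0.56 for pull-down against IgG after LPS, by -0.15 for LPS in the pull-down and by 0.21 and 0.26 for sorted cells against pull-down after PBS and LPS. No called direction of the 8 genes turned under total-count scaling or DESeq2 size factors.

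Groups share replicate numbers, and the labels do not say that same-numbered libraries come from 1 animal. Of 24 pairs of groups, 0 had every same-numbered correlation above 0.1 (range -0.0852 to 0.143), so the numbers were not used as pairs. Most same-numbered medians lay above those of other-numbered libraries, as for pull-down and IgG after PBS (0.105 against -0.0405). Some lay below, as for IgG and sorted cells after PBS (-0.0226 against 0.0108). Pairing cannot be settled from these values. With the replicate block the number of the 8 genes called was the same in 26 of 28 comparisons. It gained Gpr34 after PBS (-0.43, adjusted p = 0.042) and Adora3 after LPS (0.43, adjusted p = 0.022) for the pull-down from sorted cells against sorted cells, where 3 and 4 genes were then called. Depth limits Gpr34 in the LPS pull-down, at 19 reads over 4 libraries, and Gpr34 and Adora3 in the driver inputs, at 2 to 15 reads per group.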
